A study of Mus musculus with 6 samples.

Results

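The 10 genes described here are the interleukin-1 (IL-1) family and inflammasome genes Il1a, Il1b, Il1f9, Il18, Il1rn, Il18bp, Il1r2, Il1rap, Nlrp3 and Casp1, picked by name from the 19973 genes of a normalized RNA-seq count table after its Ensembl identifiers had been matched to mouse symbols. All 10 were listed there. The cells were macrophages from the peritoneum of male C57BL/6 mice that were old (18 months, 3 libraries) or young (2 months, 3 libraries). Mice of both ages had received 200 µg of zymosan A, a yeast cell wall preparation that provokes peritonitis, by intraperitoneal injection. Cells were collected 72 h later by lavage, kept overnight in DMEM with L-cell medium, freed of unattached cells and given PBS, the vehicle, for 6 h. These libraries therefore compare age in elicited macrophages after culture, and neither age has a library without zymosan. The labels give 3 mice per age and say that the RNA of each mouse was sequenced in triplicate. They do not say how the 3 libraries of an age relate to the mice, so p-values measure the spread between libraries, which may be technical.

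IL-1 alpha, IL-1 beta, IL-18 and IL-36 gamma, the product of Il1f9, are cytokines that alert other cells to infection or damage through receptors that signal by way of MyD88 and NF-kB. IL-1 beta and IL-18 are made as inactive precursors, and macrophages are a main source of both. An inflammasome is the protein platform on which a sensor such as NLRP3 activates caspase-1, which cuts these precursors and also gasdermin D, whose fragments make pores in the plasma membrane. Soluble or membrane-bound antagonists restrain the cytokines outside the cell. RNA levels, the only quantity measured here, say nothing of this cutting or of secretion.

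The libraries numbered 3 stood apart from the others of their age, mainly on the second principal component, which held 18.2% of the variance; the first, with 71.5%, separated the ages. Ribosomal RNA genes took 1.34% of reads in old replicate 3 and 0.0177% to 0.154% in the others, and total reads lay between 8163016 and 13007604.

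Of the 10 members, 9 reached a mean of 10 normalized counts over the 6 libraries and were tested, and 4 of these differed between ages. Il1f9, Il1a and Casp1 were higher in old macrophages, by 10.4-fold, 2.97-fold and 2.07-fold, and Nlrp3 was lower, with 1.61 times as much in young macrophages. Il1b, Il18, Il1rn, Il18bp and Il1rap did not pass the test. Il1r2, with 1 to 8 reads per library, was too low to be tested. The 4 calls are 44.4% of the members tested. Among all 11795 genes tested, 35.5% were called, 17.9% higher and 17.6% lower in old macrophages. The split between directions moved with the scaling, with 2107 higher and 2076 lower here, 2724 and 1790 after median centring and 2060 and 2264 with edgeR. The share called among the members lies close to that of the table as a whole. Old and young libraries did not overlap for 5 of the members tested, Il18bp besides the 4 that passed, against 47.5% of all genes tested. The median log2 difference of the members tested was 0.52, against 0.00 over all genes tested. Each p-value below is from limma on log2(normalized count + 1), adjusted by Benjamini-Hochberg over all genes tested, with 0.05 as the threshold. Each log2 difference is old minus young, and each fold is a ratio of mean normalized counts.

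The promoter sequences of the 4 genes that differed, and of Il1b as the neighbour of Il1a that did not pass, show which short motifs lie near their start sites. The RefSeq promoter table covered 10 of the 10 members, and each entry spans 250 bases before to 50 bases after a start site, written 5′ to 3′ on the gene's own strand, on GRCm38.p6. Capitals mark matches, on either strand, to any of 6 motifs: GGGA with any 4 bases and then CC (NF-kB), TGANTCA (AP-1), TGACGTCA (CRE), TTGCNNAA (C/EBP), GAGGAA (PU.1) and GAAA with any 2 bases and then GAAA (IRF).
Il1f9, chr2:24186226-24186525, plus strand: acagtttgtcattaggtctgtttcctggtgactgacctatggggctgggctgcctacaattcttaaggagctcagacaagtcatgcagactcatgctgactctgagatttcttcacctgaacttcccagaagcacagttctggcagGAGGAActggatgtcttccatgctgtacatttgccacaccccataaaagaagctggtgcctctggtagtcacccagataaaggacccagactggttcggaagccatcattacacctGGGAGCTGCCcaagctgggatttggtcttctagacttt
Il1a, chr2:129309923-129310222, minus strand: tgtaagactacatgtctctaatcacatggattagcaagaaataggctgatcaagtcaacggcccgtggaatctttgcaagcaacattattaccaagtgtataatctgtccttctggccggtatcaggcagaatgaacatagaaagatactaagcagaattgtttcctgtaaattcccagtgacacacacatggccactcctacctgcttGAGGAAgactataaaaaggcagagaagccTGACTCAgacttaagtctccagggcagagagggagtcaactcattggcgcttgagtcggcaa
Casp1, chr9:5298267-5298566, plus strand: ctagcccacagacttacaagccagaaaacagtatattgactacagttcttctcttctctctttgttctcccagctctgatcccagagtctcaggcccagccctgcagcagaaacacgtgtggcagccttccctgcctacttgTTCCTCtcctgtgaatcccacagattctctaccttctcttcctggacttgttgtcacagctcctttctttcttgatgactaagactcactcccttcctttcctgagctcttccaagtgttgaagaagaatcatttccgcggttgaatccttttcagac
Nlrp3, chr11:59541319-59541618, plus strand: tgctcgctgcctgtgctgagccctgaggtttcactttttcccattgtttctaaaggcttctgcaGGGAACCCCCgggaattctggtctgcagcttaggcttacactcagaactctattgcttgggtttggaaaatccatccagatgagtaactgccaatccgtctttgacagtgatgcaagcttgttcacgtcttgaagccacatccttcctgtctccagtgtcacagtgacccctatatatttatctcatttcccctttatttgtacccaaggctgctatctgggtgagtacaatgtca
Il1b, chr2:129371090-129371389, minus strand: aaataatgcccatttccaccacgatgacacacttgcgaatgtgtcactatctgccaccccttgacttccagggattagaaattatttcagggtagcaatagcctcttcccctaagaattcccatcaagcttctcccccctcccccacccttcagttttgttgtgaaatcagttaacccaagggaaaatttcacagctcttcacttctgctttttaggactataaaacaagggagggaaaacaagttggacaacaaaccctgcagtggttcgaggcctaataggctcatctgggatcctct

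The Il1f9 window held the PU.1 motif 104 bases before the start site and the NF-kB motif GGGAGCTGCC from base 13 after it. In the Il1a window the AP-1 motif TGACTCA began 12 bases before the start site, and the PU.1 motif 41 bases before it. The Casp1 window held a PU.1 match on the opposite strand, 108 bases before the start site. The window of Nlrp3 shown, the first of 2 in the table, held the NF-kB motif GGGAACCCCC 186 bases before its start site. The second window of Nlrp3, not shown, held PU.1 matches 220, 129 and 36 bases before its own start site. None of the 6 motifs was found in the Il1b window. Other members without a call, whose windows are not shown, did hold matches. The first of 3 Il1rn windows held the NF-kB motif 54 and the AP-1 motif 141 bases before its start site. Il1rap held the NF-kB motif 119 bases before the start site and the IRF motif from base 21 after it. Il18bp held the C/EBP motif 49 bases before its start site, and the Il18 and Il1r2 windows held no match. Of all 32851 promoters of the table, 28.3% held the PU.1 motif, 20.7% the NF-kB motif, 10.8% the C/EBP motif, 7.81% the AP-1 motif, 3.44% the IRF motif and 1.79% the CRE motif. A match is a run of letters only, and binding was not measured.

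Il1f9 encodes IL-36 gamma, a cytokine known mainly from skin and other epithelia that signals through the receptor encoded by Il1rl2. Old macrophages had 112, 154 and 175 normalized counts of Il1f9, and young macrophages had 8.05, 21.1 and 13.5. The lowest old library thus lay above the highest young one. These values rest on 94, 180 and 138 reads in old macrophages and on 8, 24 and 16 reads in young macrophages. The means were 147 ± 32.0 in old and 14.2 ± 6.53 in young macrophages (SD, n = 3 each), and the log2 difference was 3.35 ± 0.32 (SE; adjusted p = 4.3e-05). The 95% interval of that difference ran from 2.63 to 4.07. Il1f9 (chr2:24186476-24193568, plus strand; gene positions here are on GRCm38, the assembly of mm10) lies 143 kb from Il1rn, which did not pass.

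**Figure D1:**
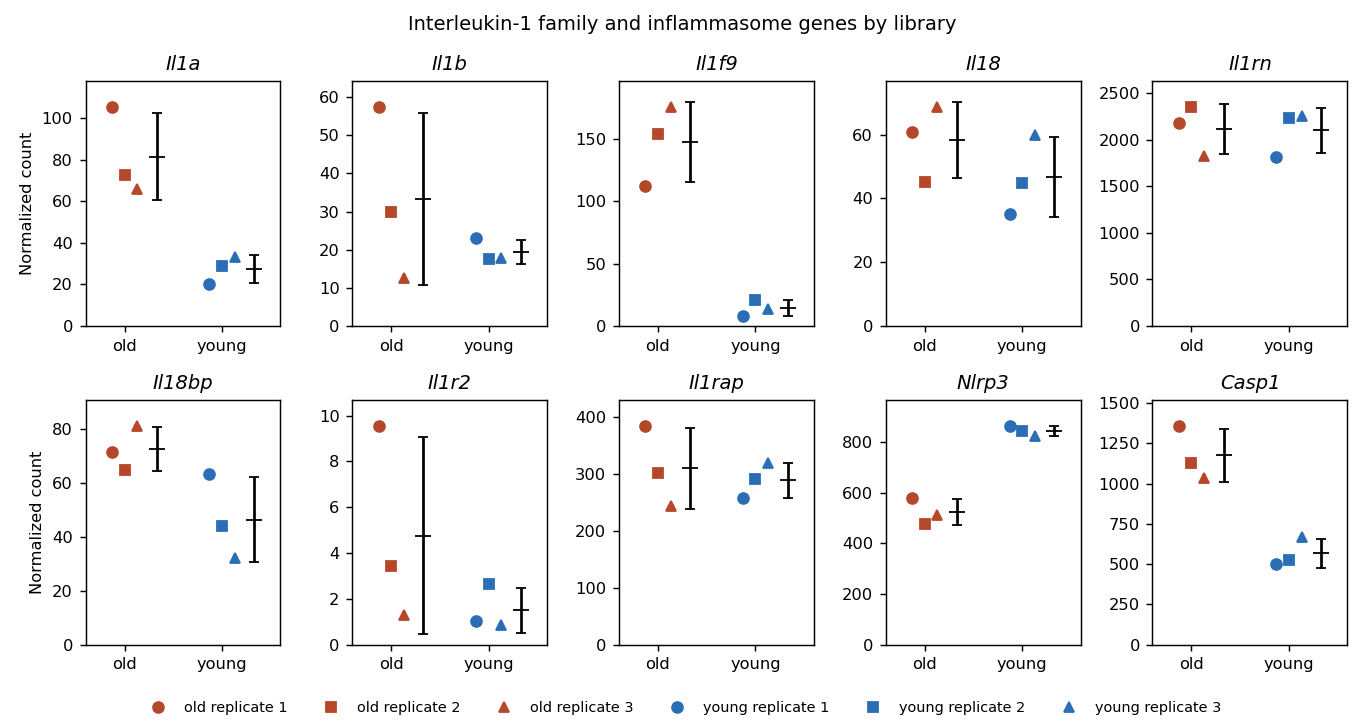
Normalized counts (linear axis from 0) of each of the 10 members in every library, old left and young right in each panel; points are libraries, bars beside them are means with SD (n = 3 each). Old and young points are apart in Il1a, Il1f9, Il18bp, Nlrp3 and Casp1, and Il1f9 shows the largest fold, with 112 or more in old and 21.1 or fewer in young macrophages.

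Il1a (chr2:129299610-129309972, minus strand) encodes IL-1 alpha, which is active without cutting by caspase-1 and is released from dying cells. It had 105, 72.7 and 66.0 normalized counts in old macrophages, from 88, 85 and 52 reads, and 20.1, 29.0 and 33.0 in young macrophages, from 20, 33 and 39 reads. The lowest old library held 66.0, and the highest young one 33.0. The means were 81.3 ± 20.9 in old and 27.3 ± 6.57 in young macrophages (SD, n = 3 each), with a log2 difference of 1.54 ± 0.25 (SE; adjusted p = 0.00116). It shares 222 exon bases with Gm14023 on the opposite strand, which averaged 1.91 normalized counts.

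Il1b (chr2:129364570-129371139), the gene of IL-1 beta, lies 54.6 kb from Il1a on the same strand of chromosome 2 and did not pass the test. Old macrophages had 57.4, 29.9 and 12.7 normalized counts, from 48, 35 and 10 reads, and young macrophages had 23.1, 17.5 and 17.7, from 23, 20 and 21 reads. Old replicate 3 lay below all 3 young libraries, and the other old libraries lay above them. The means were 33.3 ± 22.5 in old and 19.5 ± 3.17 in young macrophages (SD, n = 3 each). The log2 difference was 0.52 ± 0.47 (SE; adjusted p = 0.416), and its 95% interval, -0.53 to 1.57, holds no change as well as a gain close to that of Il1a. One library decides this call. Without old replicate 3 the log2 difference was 1.06 (adjusted p = 0.0148), and without old replicate 1 it was 0.02.

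Il18 (chr9:50554827-50581840, plus strand) encodes IL-18, the other precursor that caspase-1 cuts, known for inducing interferon gamma in T and NK cells. It had 60.9, 45.3 and 68.6 normalized counts in old macrophages and 35.2, 44.7 and 60.0 in young macrophages. The groups overlapped. The log2 difference was 0.33 ± 0.24 (SE; adjusted p = 0.313), with a 95% interval from -0.21 to 0.86. Of the other ligands of the family, Il33 had 2 to 7 reads in old and 2 to 6 in young macrophages, and Il1f6, the gene of IL-36 alpha, averaged 0.570 normalized counts in old macrophages and 0.856 in young ones; both were too low for a test.

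Il1rn (chr2:24336853-24351494, plus strand) encodes the IL-1 receptor antagonist, which occupies the IL-1 receptor without signalling. It had 2175, 2348 and 1823 normalized counts in old macrophages and 1817, 2230.4 and 2253 in young macrophages. The groups overlapped fully, and the log2 difference was 0.01 ± 0.11 (SE; adjusted p = 0.958). Its 95% interval ran from -0.25 to 0.26, so a difference beyond that size lies outside it.

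Il18bp (chr7:102014885-102018690, minus strand) encodes the secreted protein that binds and neutralizes IL-18. It had 71.7, 65.0 and 81.3 normalized counts in old macrophages and 63.4, 43.9 and 32.1 in young macrophages. Old and young libraries did not overlap, but the margin between old replicate 2 and young replicate 1 was narrow. The log2 difference was 0.68 ± 0.24 (SE) and missed the threshold (adjusted p = 0.0528). It depended on single young libraries, at 0.93 without young replicate 1 (adjusted p = 0.0133) and 0.45 without young replicate 3 (adjusted p = 0.136). Without both libraries numbered 3 it was 0.37 (adjusted p = 0.140). Il18bp shares 80 exon bases with Numa1 on the opposite strand, which averaged 1673 normalized counts, and whether reads were counted by strand is not stated in the labels.

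The antagonist and its ligands were also compared within each library, as log2 ratios of normalized counts. With 3 libraries against 3 the exact permutation test cannot go below p = 0.1, and after adjustment over the 6 ratios tested the smallest value was 0.3, so none could pass. The log2 ratio of Il1rn to Il1a was 4.37, 5.01 and 4.79 in old macrophages and 6.50, 6.27 and 6.10 in young macrophages. All old libraries lay below all young ones (2-sided exact permutation p = 0.1, adjusted 0.3). For Il1rn over Il1b the log2 ratio was 5.24, 6.29 and 7.16 in old and 6.30, 6.99 and 6.99 in young macrophages, and the groups overlapped (exact permutation p = 0.6, adjusted 0.7). Il18bp over Il18 averaged a log2 ratio 0.36 higher in old macrophages (exact permutation p = 0.7, adjusted 0.7). Il1b over Il1a had log2 ratios of -0.87, -1.28 and -2.38 in old and 0.20, -0.72 and -0.89 in young macrophages, so the ranges met at one narrow point (exact permutation p = 0.2, adjusted 0.3). The last ratio, Il1r2 over Il1rap, rests on 1 to 8 reads of Il1r2 and differed by 1.32 (exact permutation p = 0.2, adjusted 0.3).

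**Figure D2:**
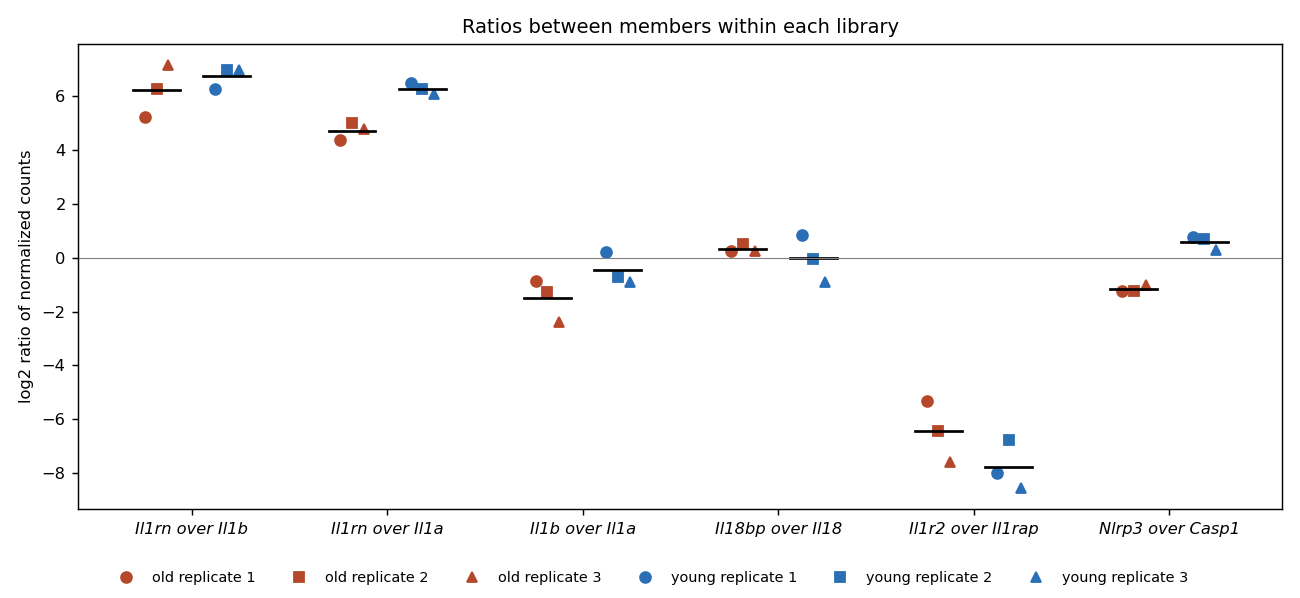
Log2 ratio of normalized counts between 2 members (vertical axis) in each library, with old left and young right for each of 6 pairs; points are libraries, shaped by replicate, and black lines are group means (n = 3 each). Old points lie wholly below young points for Il1rn over Il1a and for Nlrp3 over Casp1, and the ages overlap for the other pairs. For Nlrp3 over Casp1 this follows from the separation of each gene by itself.

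Il1rap (chr16:26581704-26730117, plus strand) encodes the accessory chain that the IL-1, IL-33 and IL-36 receptors need to signal. It had 385, 301 and 244 normalized counts in old macrophages and 258, 290.4 and 319 in young macrophages, and the ranges overlapped. The log2 difference was 0.08 ± 0.16 (SE; adjusted p = 0.720). It shares 552 exon bases with its opposite-strand neighbour Gm20319. Il1r2 (chr1:40074079-40125231, plus strand) encodes a decoy receptor that binds IL-1 without signalling. It had 8, 4 and 1 reads in old and 1, 3 and 1 in young macrophages, and a difference was not detectable at this depth (2-sided exact permutation p = 0.2).

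The receptor genes Il1r2, Il1r1, Il1rl2, Il1rl1, Il18r1 and Il18rap lie in a row on the plus strand of chromosome 1 within 478 kb, and those that passed the test differed in direction. Of the 8 other receptor genes listed, 6 were in the table and 4 were tested: 1 rose, 1 fell and 2 did not pass. The shares over all genes tested were 17.9% higher and 17.6% lower. Il1rl1, the IL-33 receptor ST2, had 71.7, 69.2 and 50.8 normalized counts in old macrophages and 8.05, 16.7 and 13.5 in young macrophages. It was 5.01-fold higher in old macrophages, with no overlap (log2 difference 2.28 ± 0.30, SE; adjusted p = 0.000328). Il1rl2, the IL-36 receptor and so the receptor of the Il1f9 product, went the other way. It had 50.2, 41.9 and 45.7 normalized counts in old macrophages and 96.6, 109.7 and 103 in young macrophages. Its level was 2.24 times as high in young macrophages (log2 difference -1.15 ± 0.14, SE; adjusted p = 0.000242). The signalling IL-1 receptor Il1r1 (log2 difference -0.11; adjusted p = 0.761) and the IL-18 receptor chain Il18rap (0.31; adjusted p = 0.474) did not pass; both were chosen for mention after their values were seen. Il18r1, the other IL-18 receptor chain, was below the level for a test and was likewise chosen. It had 13, 17 and 13 reads in old and 1, 3 and 1 reads in young macrophages (2-sided exact permutation p = 0.1, the smallest this design allows).

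Transcripts of several cell types other than macrophages were also more abundant in the old libraries, and some of these cell types carry IL-1 family receptors. Mast cells and some lymphocytes, for example, express Il1rl1, and T and NK cells express Il18r1. The 9 mast cell markers summed to 566 to 638 normalized counts in the old libraries and 50.3 to 72.8 in the young ones, 9.06-fold higher, with 5 of 6 tested higher. The 8 B cell markers summed to 1392 to 2977 in old and 54.4 to 60.4 in young libraries, 40.3-fold higher, with 8 of 8 higher. Among all genes tested, 17.9% were called higher. Some markers of both lists reached the mean of 10 only through the old libraries, so these counts of calls are no separate evidence. Igkc, for example, averaged 498 in old and 5.27 in young libraries, and Mcpt4 80.0 and 2.70. The 9 T and NK cell markers summed to 62.2 to 93.2 in old and to 7.61 to 13.2 in young libraries. Only 1 of the 9 reached the level for a test, and it was called higher. The rest had 0 to 15 reads per library. In these bulk samples more cells of a type and more RNA per cell cannot be told apart, and the part of these cells in the differences of Il1rl1, Il18r1, Il1a and Il1f9 was not tested. Of 12 neutrophil markers 6 were in the table, and S100a9, Ly6g, Retnlg, Ngp, Elane and Mpo were not. S100a8, the gene of a calcium-binding protein abundant in neutrophils, had 591 ± 74.0 normalized counts in old macrophages, against 214 ± 27.6 in young ones (SD, n = 3 each; adjusted p = 1.96e-05). Csf3r, the receptor of the growth factor G-CSF, had 450.4 ± 32.3 in old and 278 ± 31.3 in young macrophages (SD, n = 3 each; adjusted p = 0.000627). Mmp9, a gelatinase, was lower at 347 ± 36.5 in old macrophages, against 499.8 ± 48.5 in young ones (SD, n = 3 each; adjusted p = 0.00396). Cxcr2, Camp and Ltf had 0 to 2 reads in any library. The 6 summed to 1336 to 1475 normalized counts in the old libraries and 941 to 1041 in the young ones. Nearly all of that sum came from S100a8, Csf3r and Mmp9, so it is not a measure of neutrophils. The part of these markers in the differences of the members was not tested. The 8 macrophage markers were all present and summed to 345257 to 430483 in old and 274834 to 349804 in young libraries. That sum was 1.31-fold higher on average with a slight overlap, and 6 of 8 were higher, beside 17.9% of all genes tested. Lyz2, the gene of a lysozyme, made up most of that sum, with means of 348663 in old and 268077 in young libraries. It did not pass the test itself (adjusted p = 0.220). The 7 dendritic cell markers summed to 35.6 to 57.4 in old and 16.9 to 22.8 in young libraries, the 7 mesothelial and fibroblast markers to 387 to 474 in old and 362 to 445 in young libraries, and the 3 eosinophil and basophil markers to 15.2 to 27.4 in old and 9.05 to 15.8 in young libraries. Of the mesothelial and fibroblast markers 3 were tested, 2 higher and 1 lower. Col1a1 was lower in old libraries (log2 difference -0.66, adjusted p = 0.00407), and Col3a1 was higher (0.84, adjusted p = 0.00348).

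**Figure D3:**
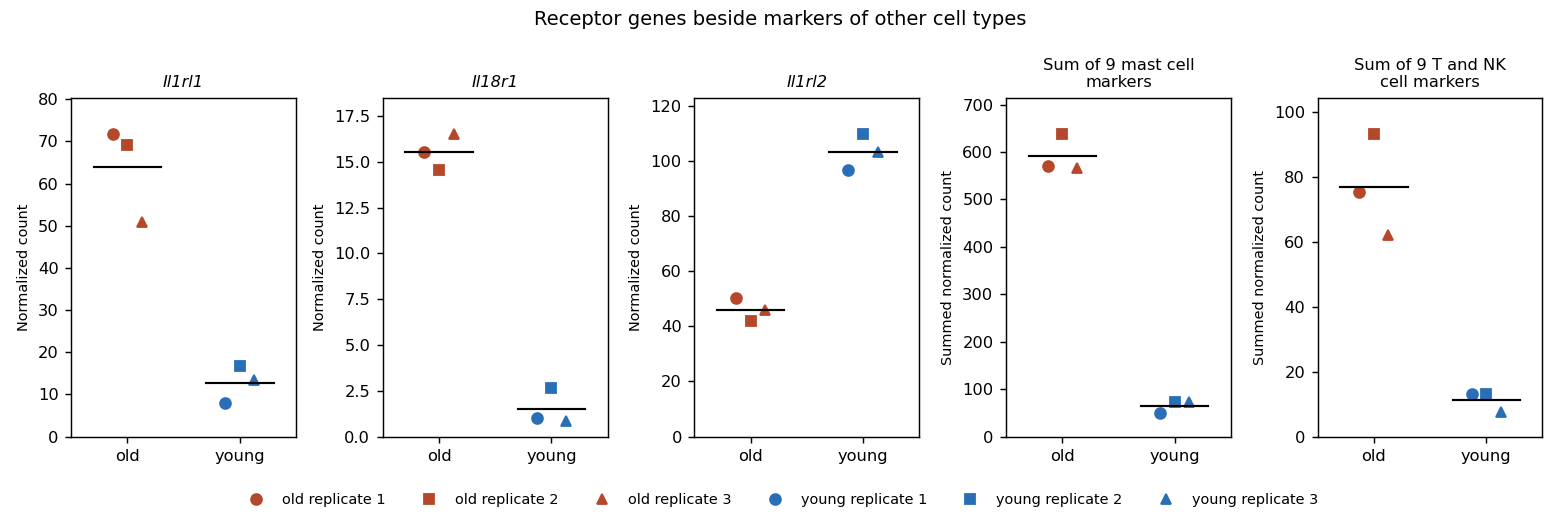
Normalized counts of Il1rl1, Il18r1 and Il1rl2 and summed normalized counts of the mast cell and the T and NK cell markers in each library (linear axes from 0), old left and young right; points are libraries, shaped by replicate, and black lines are group means (n = 3 each). Il1rl1, Il18r1 and both marker sums are higher in all 3 old libraries, and Il1rl2 is lower in all 3.

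Nlrp3 (chr11:59541568-59566956, plus strand) encodes the sensor of the best known inflammasome, whose RNA is induced in macrophages by NF-kB before the protein is triggered. It had 582, 478 and 514 normalized counts in old macrophages and 866, 845 and 827 in young macrophages. The highest old library lay well below the lowest young one. The means were 525 ± 52.8 in old and 846 ± 19.4 in young macrophages (SD, n = 3 each), with a log2 difference of -0.69 ± 0.08 (SE; adjusted p = 0.000199) and a 95% interval from -0.88 to -0.50.

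Casp1 (chr9:5298517-5307265, plus strand), the gene of the protease the inflammasome activates, differed in the opposite direction. It had 1359.9, 1128 and 1038 normalized counts in old macrophages and 503, 527 and 671 in young macrophages. No old library came near a young one. The means were 1175 ± 166 in old and 567 ± 90.8 in young macrophages (SD, n = 3 each), and the log2 difference was 1.05 ± 0.13 (SE; adjusted p = 0.000217). Within libraries, the log2 ratio of Nlrp3 to Casp1 was -1.22, -1.24 and -1.01 in old macrophages and 0.78, 0.68 and 0.30 in young macrophages. Its means, -1.16 ± 0.13 in old and 0.59 ± 0.25 in young macrophages (SD, n = 3 each), differed by -1.75 (2-sided exact permutation p = 0.1, adjusted 0.3). Every old library was below every young one in Nlrp3 and above it in Casp1. The separation of this ratio, and its p-value, follow from that and are no separate evidence. The macrophage marker sum, given above, averaged higher in old libraries, which is the direction of Casp1 and not of Nlrp3, and its part in either difference was not tested.

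Among 12 other sensors and adaptors tested, 4 rose, 2 fell and 6 did not pass. Over all genes tested, 17.9% rose and 17.6% fell. Mefv, the gene of the inflammasome sensor pyrin, had 174 ± 3.15 normalized counts in old macrophages, against 68.6 ± 6.43 in young ones (SD, n = 3 each; log2 difference 1.33 ± 0.12, SE; adjusted p = 2.73e-05). Nlrp1a had 266 ± 6.04 in old and 172 ± 8.12 in young macrophages (SD, n = 3 each; adjusted p = 0.000473). Naip1 (log2 difference 0.82; adjusted p = 0.0044) and, barely, Nlrp10 (1.53; adjusted p = 0.0486 with limma and 0.0556 with edgeR) were also higher in old macrophages. Naip2, whose protein recognizes the rod of bacterial secretion systems, fell to 1445 ± 59.0 in old macrophages, against 2173 ± 141 in young macrophages (SD, n = 3 each; adjusted p = 0.000205), and Naip5, a flagellin sensor, fell by 0.52 on the log2 scale (adjusted p = 0.00446). The Naip genes, like the Nlrp1 genes, are related copies of each other, and reads could be split between them in counting, so their values are uncertain. Pycard, the gene of ASC, the adaptor between NLRP3 and caspase-1, had 1032 ± 69.6 normalized counts in old macrophages, against 1149 ± 98.9 in young ones (SD, n = 3 each), a log2 difference of -0.15 that did not pass (adjusted p = 0.184; 95% interval -0.34 to 0.03). Nek7, which NLRP3 needs for assembly, had a log2 difference of 0.00 (adjusted p = 0.993). Nlrp10, Pycard and Nek7 were chosen for mention after their values were seen.

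Of the 10 genes for other inflammatory caspases, gasdermins and release, 9 were tested, and 5 rose, none fell and 4 did not pass. Beside them, 17.9% of all genes tested rose and 17.6% fell. Gsdmd, the pore-forming substrate of caspase-1, had 1018, 1105 and 1127 normalized counts in old macrophages and 657, 656 and 755 in young macrophages. It was 1.57-fold higher in old macrophages with no overlap (log2 difference 0.65 ± 0.08, SE; adjusted p = 0.000223). Gsdme, a gasdermin cut by caspases of apoptosis, had 238 ± 6.36 in old and 109 ± 8.53 in young macrophages (SD, n = 3 each; adjusted p = 3.0e-05). Panx1, a channel that releases ATP, had 328 ± 8.21 in old and 196 ± 9.62 in young macrophages (SD, n = 3 each; adjusted p = 0.000123). Casp4, the sensor of cytosolic lipopolysaccharide in mice also called caspase-11, and Ninj1, which breaks open the plasma membrane of dying cells, were the other genes that rose, by log2 differences of 0.60 (adjusted p = 0.0161) and 0.49 (adjusted p = 0.00383).

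**Figure D4:**
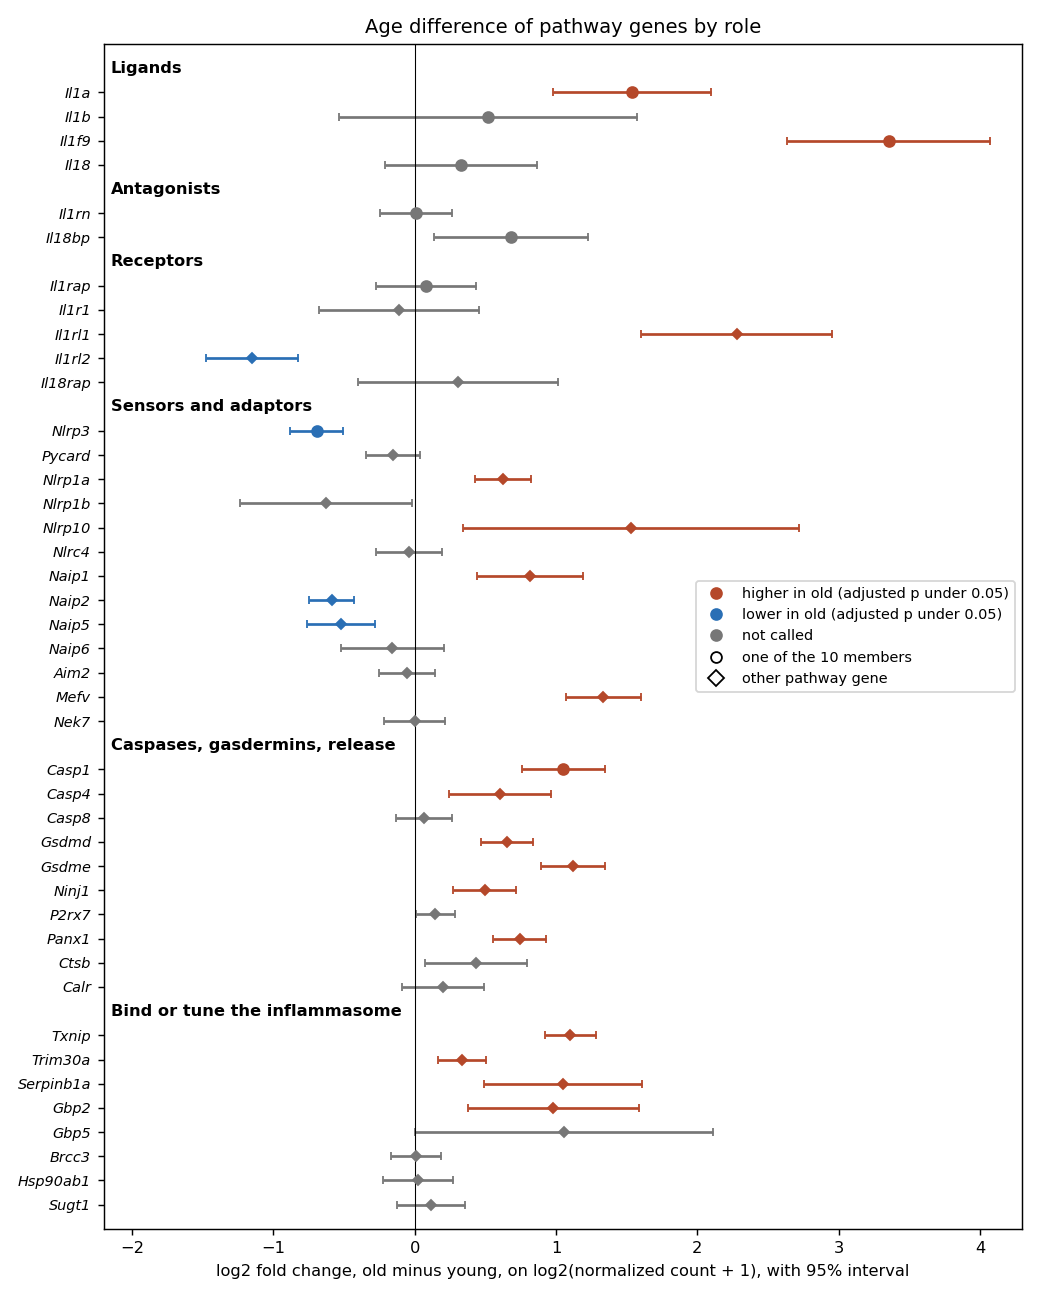
Log2 difference (old minus young) with its 95% interval for the 9 tested members (circles) and the tested genes of the other lists except signalling (diamonds), grouped by role; red marks genes called higher in old macrophages, blue those called lower and grey those that did not pass. Intervals of Il1f9, Il1a, Casp1, Mefv, Gsdmd and Il1rl1 lie above 0 and those of Nlrp3, Naip2 and Il1rl2 below it.

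Of the 21 genes for signalling below the receptors, all tested, 5 rose, 6 fell and 10 did not pass. For all genes tested the shares were 17.9% higher and 17.6% lower. Ikbkg, the regulatory subunit of the kinase complex that frees NF-kB, had 1651 ± 60.8 in old and 1048 ± 18.6 in young macrophages (SD, n = 3 each; adjusted p = 4.24e-05). It shares 418 exon bases with G6pdx on the opposite strand, which averaged 3653 normalized counts. Whether reads were counted by strand is not stated, so part of the Ikbkg counts could come from G6pdx. Tnfaip3, whose product A20 ends NF-kB signals, had 1715 ± 68.4 in old and 1249 ± 13.3 in young macrophages (SD, n = 3 each; adjusted p = 0.000417). Nfkbiz, a nuclear partner of NF-kB that IL-1 receptors induce, was lower, with 187 ± 22.6 in old and 281 ± 34.7 in young macrophages (SD, n = 3 each; adjusted p = 0.00563). Smaller differences passed for Irak1, a kinase recruited by MyD88 (log2 difference 0.26; adjusted p = 0.0119), for Nfkb1 (-0.26; adjusted p = 0.00762) and for Peli1, a ubiquitin ligase of the IRAK kinases (-0.35; adjusted p = 0.00963). Without young replicate 2, Irak1 (adjusted p = 0.058) and Peli1 (adjusted p = 0.05004) no longer passed.

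Of 8 tested genes for proteins that bind or tune the inflammasome, 4 rose, none fell and 4 did not pass. As above, 17.9% of all genes tested rose and 17.6% fell. Txnip, whose protein binds NLRP3 under oxidative stress, had 5172, 5069.7 and 4431 normalized counts in old macrophages and 2169, 2259 and 2404 in young macrophages. It was 2.15-fold higher in old macrophages (log2 difference 1.10; adjusted p = 7.25e-06). Gbp2, a guanylate-binding protein induced by interferon (log2 difference 0.98; adjusted p = 0.0189), Serpinb1a (1.05; adjusted p = 0.00954) and Trim30a (0.34; adjusted p = 0.00688) were the others. SERPINB1 restrains caspase-1 and neutrophil proteases, and TRIM30 restrains NLRP3. Serpinb1a lost its call without old replicate 2 (adjusted p = 0.0551). Over all 6 lists 54 genes were tested, and 19 rose, 9 fell and 26 did not pass. The 28 calls are 51.9%, beside 35.5% of all genes tested, and the median log2 difference was 0.11. The lists were chosen with earlier results of these data known, so the higher share is no evidence about the pathway.

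Levels can be compared between genes only per length, taken here as all annotated exons of a gene merged. This length can exceed that of the expressed transcript, and it was 5535 bases for Il1rn and 1497 for Casp1. The order below depends on it. Without it Il1rn was above Casp1 in old macrophages, with means of 2115 and 1175 normalized counts. Per kilobase of exon, Casp1 was the highest member in old macrophages at 785 ± 111 normalized counts, above Il1rn at 382 ± 48.4 (SD, n = 3 each). In young macrophages Il1rn at 379 ± 44.4 and Casp1 at 379 ± 60.6 could not be told apart. Nlrp3 came next in both ages, at 129 ± 13.0 in old and 209 ± 4.79 in young macrophages. Il1f9 followed in old macrophages at 89.3 ± 19.4, but in young macrophages it was, at 8.62 ± 3.96, the lowest member but one and overlapped Il1b at 10.2 ± 1.66. Il1b was the lowest but one in old macrophages at 17.5 ± 11.8. The neighbours from Il18 (56.5 ± 11.5 in old macrophages) down to Il1b overlapped in their library values there, and Il1r2 was lowest in both ages.

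Without both libraries numbered 3, which stood apart, and so with 2 old and 2 young libraries, the calls of Il1f9, Il1a, Casp1 and Nlrp3 held and 7 members passed in place of 4. Among all genes tested, 6960 passed in place of 4183. Il1b then had a log2 difference of 1.01 (adjusted p = 0.00826), Il1rap one of 0.31 (adjusted p = 0.0164) and Il1rn one of 0.17 (adjusted p = 0.0496).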

How the data were processed

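RNA of 6 vehicle-treated macrophage cultures, 3 old and 3 young, was sequenced from TruSeq libraries, per the labels' protocols. The table deposited by the authors holds a normalized signal: the reads of each gene scaled by 1 factor for each library. DESeq2 and the build mm10 are named, per the submitters' processing notes. The aligner, counter, annotation and strand setting were not given in the sources used here. Every column consists of whole multiples of 1 step, and 100% of values came out as whole reads within 0.01 reads.

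Of 19973 identifiers, 19917 matched a symbol in GENCODE M21 (GRCm38), which also gave positions, exon lengths and overlaps. limma 3.58.1 (R 4.3.3) with a variance trend was run on log2(normalized count + 1) for genes with a mean of at least 10, and p-values were adjusted by Benjamini-Hochberg over all 11795. The pseudocount makes the difference of low genes smaller than it is. The test was first tried on simulated counts with known changes. Exact permutation tests over libraries served for ratios. Alternatives were other pseudocounts (0.5 and 5), other filters (none, or a mean of 50), quantile normalization, centring on the median, no variance trend, edgeR 4.0.16 and DESeq2 1.42.0 on the recovered reads, the replicate number as a block, and libraries left out. The nearest libraries, old replicates 1 and 2, differed by 1.49 times the sampling noise, and young replicates 1 and 2 by 1.77 times, so none was counted as a copy of another. Separate libraries of the same RNA could also differ by more than that noise, so these values cannot tell whether libraries share a mouse.

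The members, the 6 pathway lists and the 8 marker lists were chosen with earlier results of these data known. Named were all members and up to 3 called genes in each direction per pathway list, by adjusted p. Where a pathway list had no call, its 2 genes of highest mean were named. Of the 2 highest of each marker list, those of the macrophage, neutrophil, and mesothelial and fibroblast lists were named, with Igkc and Ccr7. The others enter the sums only. Il1r1, Il18rap, Il18r1, Pycard, Nek7, Nlrp10, Casp4, Ninj1, Gbp2, Csf3r, Cxcr2, Camp, Ltf and Mcpt4 were added after their values were seen. Promoters come from RefSeq (GRCm38.p6).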

Additional observations from a re-analysis of the deposited data

How the results depend on the processing

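Il1f9, Il1a, Casp1 and Nlrp3 kept direction and call in all 17 other fits. Their log2 differences ran from 3.02 to 3.67 for Il1f9, 1.34 to 1.81 for Il1a, 0.94 to 1.26 for Casp1 and -0.77 to -0.63 for Nlrp3. The number of members called was 4 to 5 with a library left out and 7 without both libraries numbered 3. The number of genes called was 4183, with 2940 to 5660 when a library was left out, and 6960 without both libraries numbered 3. The cause of that increase was not tested. The pathway lists had 28 calls, 20 to 33 with a library left out. Replicate numbers did not pair the libraries: deviations from the group means correlated at -0.38, -0.36 and -0.68 within a number, and no library correlated best with its own number. With the replicate block 2643 genes and 18 pathway genes were called, and Irak1 (adjusted p = 0.0773), Nfkb1 (0.0785), Peli1 (0.0602), Trim30a (0.0578) and Csf1r (0.213) lost their calls. Il18bp passed with a mean of at least 50 (adjusted p = 0.0479), quantile normalization (0.0288), median centring (0.0457) and without young replicate 1 (0.0133), and did not in the other 13 fits, among them those with edgeR (0.0862), DESeq2 (0.109) and without young replicate 3 (0.136). Some values turned sign. Il1rn was at -0.035 with quantile normalization, -0.012 with edgeR and -0.092 to 0.11 with a library left out. Il1rap ran from -0.088 to 0.24 with a library left out, and Csf1r was at -0.033 with quantile normalization. The log2 ratio of Il18bp to Il18 lay between -0.077 and 0.798 with a library left out and at -0.032 without both numbered 3. Il1b, Il1rl1, Serpinb1a and Ccr7 could not be fitted with a mean of at least 50. Il1b, Il18 and Il18bp had 10 to 76 reads per library, and whether depth bears on their missing calls was not tested; Il1r2, with 1 to 8 reads, was below the level for a test.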
